A study of Mus musculus with 5 samples.

Results

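Transcripts of the glucose-burning pathway were followed from the uptake of glucose to the export of lactate, together with the pentose phosphate branch, in mouse bone marrow-derived macrophages of 2 genotypes. The set was given as 41 gene symbols chosen by function: glucose transporters, the enzymes of glycolysis, the enzymes that set fructose-2,6-bisphosphate, lactate and pyruvate enzymes, lactate transporters and pentose phosphate enzymes. Of these, 39 matched a symbol among the 20583 in the count table, and 38 had enough reads to be tested among 13341 genes. Pkm2 and Tigar matched no symbol under those spellings. Pkm2 is an older name of Pkm, which is itself in the set. Pdk4, with counts of 3, 4 and 4 in wild type and 7 and 2 in NICcA, was too low to test.

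Bone marrow cells of mice on a C57BL/6 background, 7 to 8 weeks old, were grown for 7 days with 25 ng/ml M-CSF, the growth factor that turns marrow precursors into adherent macrophages. The groups were wild type (n = 3 libraries, replicates 1, 2 and 3) and NICcA (n = 2 libraries, replicates 2 and 3). NICcA is not explained in the labels. Elsewhere the name is used for a conditional allele that makes the active inner part of a Notch receptor, and no promoter or Cre that switches it on is named in the labels. Whether each library is a separate animal or culture is not stated, so p-values reflect the spread among libraries, which may be technical. Every test below set 2 libraries against 3, except where libraries are said to be left out.

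Glycolysis splits glucose into pyruvate and yields ATP without oxygen. Hexokinase traps the sugar, phosphofructokinase commits it, and pyruvate kinase releases the end product, which lactate dehydrogenase reduces to lactate for export. The pentose phosphate pathway branches off after hexokinase and makes NADPH, which feeds the oxidative burst of phagocytes, and ribose for nucleotides. Macrophages exposed to bacterial products are known to raise glucose uptake and lactate output, and many of the genes are targets of hypoxia-inducible factor 1 and of Myc.

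Short promoter stretches are shown for 4 genes whose levels are described below: both lactate transporters of the set, the main lactate dehydrogenase and the bifunctional enzyme Pfkfb4. No result on levels below rests on these sequences. The genes were chosen after their values were seen. Each stretch is the 250 bases before a RefSeq transcription start in build GRCm38.p6, written 5′ to 3′ on the gene's strand, while the submitters' processing notes name build mm8 for the counts. Capitals mark ACGTG, the core letters of the hypoxia response element, on either strand, so CACGT marks the same letters on the other strand and CACGTG, the E-box letters bound by Myc, holds both.
Slc16a3, chr11:120948817-120949066, plus strand: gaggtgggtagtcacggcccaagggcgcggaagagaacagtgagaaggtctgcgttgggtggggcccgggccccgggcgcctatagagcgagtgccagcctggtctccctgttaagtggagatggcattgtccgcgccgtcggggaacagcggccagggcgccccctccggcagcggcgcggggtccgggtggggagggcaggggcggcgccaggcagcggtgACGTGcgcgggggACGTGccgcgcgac
Slc16a1, chr3:104638414-104638663, plus strand: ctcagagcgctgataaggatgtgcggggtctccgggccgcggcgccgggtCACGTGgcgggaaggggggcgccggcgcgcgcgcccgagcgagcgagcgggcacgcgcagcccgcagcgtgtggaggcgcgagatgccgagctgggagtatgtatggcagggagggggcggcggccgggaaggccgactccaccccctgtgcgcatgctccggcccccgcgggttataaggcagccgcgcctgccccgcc
Ldha, first of its starts, chr7:46845554-46845803, plus strand: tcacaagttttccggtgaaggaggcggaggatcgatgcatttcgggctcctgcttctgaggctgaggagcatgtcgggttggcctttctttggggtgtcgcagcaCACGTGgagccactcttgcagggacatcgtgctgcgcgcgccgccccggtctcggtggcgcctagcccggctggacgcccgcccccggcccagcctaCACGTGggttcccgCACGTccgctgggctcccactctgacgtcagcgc
Pfkfb4, chr9:108991652-108991901, plus strand: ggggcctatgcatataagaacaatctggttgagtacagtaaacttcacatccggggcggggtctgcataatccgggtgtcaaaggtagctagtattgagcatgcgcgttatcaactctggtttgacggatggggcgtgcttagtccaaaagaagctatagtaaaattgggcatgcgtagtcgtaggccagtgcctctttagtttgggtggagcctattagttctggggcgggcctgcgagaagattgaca
Slc16a3 holds 2 matches and no E-box, Slc16a1 holds 1 E-box, Ldha holds 5 matches counted over both strands with 2 E-boxes among them, and Pfkfb4 holds 0 matches. A second Ldha window, before a later start and not printed, holds 0 matches.

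Across the pathway, ACGTG on either strand lay in 19 of 59 promoter windows (32.2%), against 5444 of 32851 windows of the same length over all genes (16.6%). The windows covered 39 symbols, and 15 of them had a match in at least 1 window. All windows covered 27025 genes, and the share of those genes with a match was not computed. Overlapping windows of Aldoa hold the same match, so it enters the 19 more than once. CACGTG, which contains ACGTG, lay in 10.2% of the pathway's windows and 6.02% of all windows. GTGGGAA on either strand, the letters bound by the Notch partner Rbpj, lay in 2 of the pathway's windows (3.39%), before Aldoc and Pdk4, and in 5.42% of all windows. Among tested genes, the 15 with ACGTG had a median log2 fold change of 0.14 and the 22 without it one of 0.31. A match is a run of letters in this window and was not tested as a binding site.

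Total counts over transcript rows were 57442309 to 76562905 in wild type and 64870248 and 68110891 in NICcA, and these totals count a read again for each isoform row that it fits. Macrophage markers were abundant, summing to 14700 to 20900 CPM in wild type and 12400 and 13100 CPM in NICcA, with Lyz2 at 11500 to 17500 CPM (counts scaled to 1e6 per TMM-scaled library) in wild type and 9300 and 10400 CPM in NICcA. Of 9 macrophage markers tested, both NICcA libraries lay below wild type for 4 (44.4%, against 18.5% of all genes). They lay above wild type for 1 (11.1%, against 18.3%). Summed B cell, T cell and erythroid markers reached at most 3.25 CPM in any library. A pair of libraries stood apart. Summed classical activation markers ranged from 56.8 to 126 CPM in wild type and reached 1410 CPM in NICcA replicate 2, against 164 CPM in NICcA replicate 3. Wild type replicate 3 was the lowest of all 5 libraries for 29.2% of genes. For some of the larger log2 fold changes, values without 1 or both of these libraries are given, not always with the largest shift. In bulk RNA, fewer cells of a type and less RNA per cell cannot be told apart.

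By mean RPKM (reads per kilobase of transcript, scaled to library size) in wild type, the 5 most abundant transcripts of the set were Pkm at 476, Aldoa at 432, Gapdh at 331, Eno1 at 260 and Ldha at 258 RPKM. The most abundant pentose phosphate transcript was Taldo1, transaldolase, at 186 RPKM. At the other end, Pfkfb1 measured 0.27 RPKM and Pdk4 at 0.0127 RPKM. Lower glycolysis and aldolase thus held the highest levels within glycolysis, while hexokinases and phosphofructokinases, the committing steps, stayed between 2.02 RPKM for Pfkm and 37.0 RPKM for Hk3. Gapdh, Pgk1, Pgam1 and Ldha have processed pseudogenes whose sequence can share their reads.

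No transcript of the set passed edgeR's quasi-likelihood test after Benjamini-Hochberg adjustment over all transcript rows tested. That was 0 of 38, where 4 of 13341 genes (0.03%) passed. At an unadjusted p below 0.05, 6 of the 38 (15.8%) were higher in NICcA, against 7.68% of all genes, and 4 (10.5%) were lower, against 6.83%. DESeq2 called 1 gene, Pfkfb4, lower, where it called 1.9% of all genes lower, and called 0 higher, against 2.05%. Limma-voom and limma on log2(RPKM + 1) called 0.

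More transcripts of the set lay above than below the wild type range. Both NICcA libraries lay above all wild type libraries for 12 genes (31.6%), against 18.3% of all genes, and below them for 5 (13.2%), against 18.5%. The groups overlapped for the other 21. The log2 fold change (log2FC, NICcA minus wild type) was above 0 for 25 of 38 (65.8%), against 50.5% of all genes. Its median was 0.17, against 0.00 over all genes, and single values ran from -2.35 for Fbp1 to 0.64 for Pdk3. The counts depend on the scaling: without scaling factors 21 genes lay above and 4 below (29.2% and 8.95% of all genes), and on deposited RPKM values 20 above and 4 below (30.4% and 8.72% of all genes). At an unadjusted p below 0.05 these scalings gave 13 higher and 2 lower (12.4% and 3.24% of all genes) and 10 higher and 2 lower (14.2% and 3.05%).

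High values were more frequent in NICcA replicate 2 than in NICcA replicate 3. NICcA replicate 2 lay above all wild type libraries for 23 of the 38 genes (60.5%, against 32.3% of all genes), while NICcA replicate 3 did so for 13 (34.2%, against 27.7%). Taken as log2 CPM minus the wild type mean, the set had a median of 0.30 in NICcA replicate 2, 0.06 in NICcA replicate 3, and 0.02, 0.07 and -0.14 in wild type replicates 1, 2 and 3. Wild type replicate 3 was the lowest of the 5 libraries for 21 genes (55.3%, against 29.2%). Without NICcA replicate 2, 0 genes were higher and 4 lower at an unadjusted p below 0.05 in edgeR, where 1.88% and 2.25% of all genes were, and the median was 0.06. Without wild type replicate 3 there were 2 higher and 3 lower (6.54% and 4.17% of all genes). With both left out, a choice made after seeing the data, there were 0 higher and 4 lower (3.3% and 2.16% of all genes), and the median was 0.00.

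**Figure D1:**
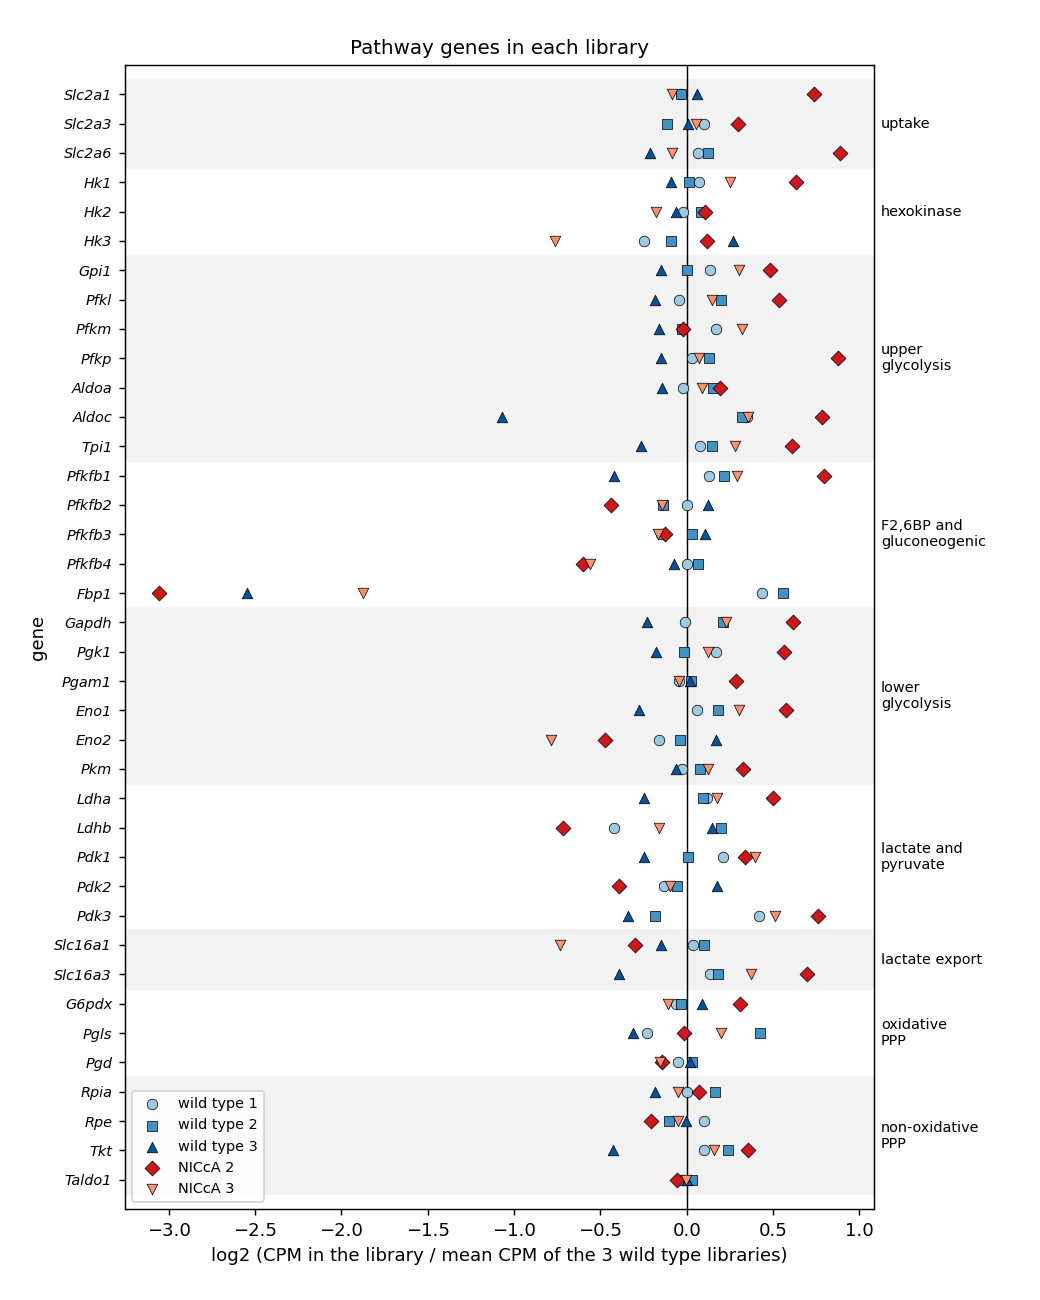
Log2 ratio of CPM in each library to the mean CPM of the 3 wild type libraries (x axis) for the 38 tested genes (y axis), grouped by step; each symbol is 1 library. NICcA replicate 2 lay above every wild type library for 23 genes, NICcA replicate 3 for 13.

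Glucose uptake genes were high in NICcA replicate 2 alone. Slc2a6, which encodes GLUT6, was the most abundant of the 3 transporters, at 29.2 ± 3.79 RPKM in wild type (mean ± SD, n = 3). Its levels were 82.7, 86.2 and 68.1 CPM in wild type replicates 1, 2 and 3 (the order used throughout) and 146 and 74.4 CPM in NICcA replicates 2 and 3. Only NICcA replicate 2 left the wild type range. Slc2a1, the widely expressed transporter GLUT1, measured 47.5, 47.6 and 50.7 CPM in wild type and 81.0 and 45.8 CPM in NICcA. NICcA replicate 2 was again the highest and NICcA replicate 3 the lowest of the 5. Slc2a3, encoding GLUT3, was sparse, at 6.17 to 7.15 CPM in wild type and 8.20 and 6.93 CPM in NICcA. The log2 fold changes were 0.48 (SE 0.28) for Slc2a6 and 0.38 (SE 0.23) for Slc2a1. Without NICcA replicate 2 each was -0.09.

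The 3 hexokinases differed in direction. Hk1, the housekeeping hexokinase that binds mitochondria, measured 60.8, 58.4 and 54.4 CPM in wild type and 89.9 and 68.9 CPM in NICcA. Both NICcA libraries lay above the wild type range. The log2 fold change was 0.46 (SE 0.14, 95% interval 0.12 to 0.79, edgeR unadjusted p = 0.016, adjusted p = 0.30), and it was 0.25 without NICcA replicate 2. Hk3, a hexokinase typical of myeloid cells and the most abundant of the 3, measured 128, 143 and 183 CPM in wild type and 165 and 89.5 CPM in NICcA. The NICcA libraries lay on different sides of the wild type mean, and the log2 fold change was -0.25 (SE 0.29). Hk2, the inducible hexokinase, measured 86.3 to 95.4 CPM in wild type and 97.0 and 79.6 CPM in NICcA (log2FC -0.03, SE 0.12).

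As a share of the summed RPKM of the 3 hexokinases, Hk1 held 20.8%, 18.5% and 15.3% in wild type and 23.9% and 28.2% in NICcA. Hk3 held 60.5% ± 5.27 in wild type (SD, n = 3) and 51.9% ± 6.62 in NICcA (SD, n = 2), with overlapping groups. The Hk1 share did not overlap between the groups, at a two-sided exact permutation p of 0.2. With 3 libraries against 2, no p below 0.2 is possible, so a share could not reach 0.05. Shares were computed for 25 transcripts of 9 steps, and the groups did not overlap for 9 of them. In a step of 2 genes the shares mirror each other, so Eno1 with Eno2 and Slc16a1 with Slc16a3 enter that count as pairs, and no share over all genes stands beside it.

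All 7 upper glycolysis transcripts, from glucose-6-phosphate isomerase to triose phosphate isomerase, had a log2 fold change above 0, with a median of 0.39. For all 7, wild type replicate 3 was the lowest of the 5 libraries (100%, against 29.2% of all genes). Gpi1, the isomerase that makes fructose-6-phosphate, measured 259, 236 and 213 CPM in wild type and 330 and 291 CPM in NICcA. Its groups did not overlap, and the log2 fold change was 0.39 (SE 0.13, 95% interval 0.07 to 0.71, edgeR unadjusted p = 0.023, adjusted p = 0.32). Tpi1, which interconverts the triose phosphates, measured 177, 186 and 140 CPM in wild type and 257 and 204 CPM in NICcA (log2FC 0.46, SE 0.17, 95% interval 0.04 to 0.87, edgeR unadjusted p = 0.035, adjusted p = 0.33). Again both NICcA libraries were above wild type. Without NICcA replicate 2 the values were 0.30 for Gpi1 and 0.28 for Tpi1. With wild type replicate 3 left out as well, they were 0.23 and 0.17. In that fit the 7 values ran from -0.00 for Pfkp to 0.25 for Pfkm.

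The phosphofructokinases, which commit the sugar to glycolysis, overlapped between the groups. Pfkp, the platelet-type form and the most abundant, measured 154, 165 and 136 CPM in wild type and 277 and 159 CPM in NICcA. Only NICcA replicate 2 stood out, and the log2 fold change of 0.53 (SE 0.24) was 0.07 without it. Pfkl, the liver-type form, measured 45.1 to 58.7 CPM in wild type and 74.2 and 56.8 CPM in NICcA, and its log2 fold change of 0.36 (SE 0.17) was 0.15 without NICcA replicate 2. Pfkm, the muscle-type form, ranged from 6.57 to 8.28 CPM in wild type, and NICcA replicate 3, at 9.19 CPM, lay above it while NICcA replicate 2, at 7.24 CPM, did not. Aldoa, the main aldolase, measured 858, 966 and 787 CPM in wild type and 995 and 925 CPM in NICcA, with overlapping groups (log2FC 0.14, SE 0.14). Aldoc, the brain-type aldolase, measured 43.6, 42.8 and 16.3 CPM in wild type and 58.8 and 43.7 CPM in NICcA. Wild type replicate 3 was far below the other libraries, and without it the log2 fold change went from 0.58 (SE 0.42) to 0.25 (SE 0.17).

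Pfkfb4 had the smallest p of the set and lay lower in NICcA. Its product makes and breaks down fructose-2,6-bisphosphate, the strongest activator of phosphofructokinase. Levels were 79.8, 83.2 and 75.8 CPM in wild type and 52.5 and 54.0 CPM in NICcA. The libraries of each genotype lay close together and the groups were well apart. The log2 fold change was -0.58 (SE 0.10, 95% interval -0.81 to -0.35, edgeR unadjusted p = 0.00089), or 0.669-fold. It did not pass edgeR's adjustment (adjusted p = 0.27) and passed DESeq2's (log2FC -0.58, adjusted p = 2.2e-05). Over the alternatives the log2 fold change ran from -0.61 to -0.44, and the adjusted p of edgeR, DESeq2 or limma from 2.2e-05 to 0.9.

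Pfkfb2 and Pfkfb3 had negative values closer to 0, and Pfkfb1 a positive one. Pfkfb3, the isoform with the highest ratio of kinase to phosphatase activity, measured 42.6 to 51.0 CPM in wild type and 43.3 and 42.2 CPM in NICcA (log2FC -0.15, SE 0.11). Pfkfb2, known from heart, measured 27.4 to 32.8 CPM in wild type and 22.2 and 27.3 CPM in NICcA (log2FC -0.28, SE 0.14). Pfkfb1, the liver form, was sparse, at 0.642, 0.682 and 0.440 CPM in wild type and 1.02 and 0.721 CPM in NICcA, without overlap. Its log2 fold change of 0.56 (SE 0.35) had an interval of -0.30 to 1.42 and was 0.29 without NICcA replicate 2. Pfkfb4 held 65.1%, 64.8% and 60.7% of the summed RPKM of these 4 genes in wild type and 56.6% in each NICcA library. Pfkfb3 held 24.5% ± 1.98 (SD, n = 3) and 29.5% ± 1.09 (SD, n = 2). Neither share overlapped between the groups, and the differences between the 4 log2 fold changes were not tested. A row under the older name of Tigar, 9630033F20Rik, whose product lowers fructose-2,6-bisphosphate, measured 13.9 to 16.9 CPM in wild type and 18.6 and 16.9 CPM in NICcA (log2FC 0.21, SE 0.13).

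Fbp1, the fructose bisphosphatase that runs the committing step backwards, had the largest log2 fold change of the set in size. Its levels were 44.6, 48.4 and 5.63 CPM in wild type and 3.95 and 8.97 CPM in NICcA. Wild type replicates 1 and 2 were high, while wild type replicate 3 lay between the NICcA libraries. The log2 fold change was -2.35 (SE 0.93, 95% interval -4.61 to -0.08, edgeR unadjusted p = 0.044, adjusted p = 0.34). Without wild type replicate 3 it was -2.84 (SE 0.38, edgeR adjusted p = 0.19). Without wild type replicate 3 and NICcA replicate 2 it was -2.37 (SE 0.19, edgeR adjusted p = 0.022), where Fbp1 passed and no other gene of the set did. That setting leaves 2 libraries against 1 and removes the wild type library with the low value, so its p is no support for a difference.

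**Figure D2:**
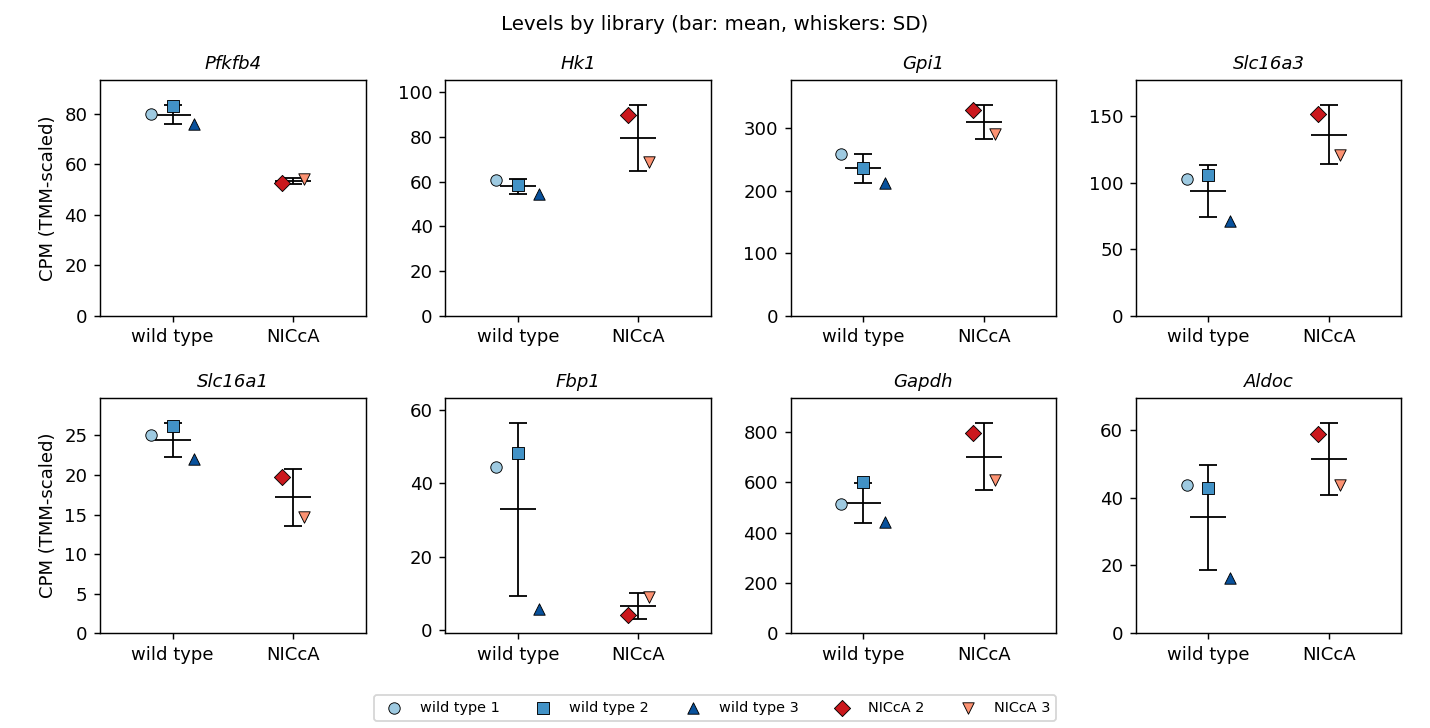
TMM-scaled CPM (y axis) of 8 genes in wild type (n = 3) and NICcA (n = 2); symbols are libraries, bars the mean and whiskers the SD. Pfkfb4 and Slc16a1 lay lower and Hk1, Gpi1 and Slc16a3 higher in both NICcA libraries, while Fbp1 in wild type replicate 3 (5.63 CPM) lay between the NICcA values.

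Lower glycolysis, from glyceraldehyde-3-phosphate dehydrogenase to pyruvate kinase, had a log2 fold change above 0 for 5 of 6 transcripts and a median of 0.29. Eno1, the main enolase, measured 609, 664 and 484 CPM in wild type and 873 and 723 CPM in NICcA. Both NICcA libraries were above wild type (log2FC 0.45, SE 0.18, 95% interval 0.02 to 0.88, edgeR unadjusted p = 0.043, adjusted p = 0.34), and the value was 0.30 without NICcA replicate 2. Gapdh, often used as a reference gene, measured 514, 599 and 442 CPM in wild type and 795 and 607 CPM in NICcA. NICcA replicate 3 cleared the highest wild type library by a small margin only. The log2 fold change of Gapdh was 0.44 (SE 0.18, 95% interval -0.01 to 0.89, edgeR unadjusted p = 0.056, adjusted p = 0.35), and 0.23 without NICcA replicate 2.

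Pkm, pyruvate kinase and the most abundant transcript of the set, measured 1440, 1550 and 1410 CPM in wild type and 1840 and 1600 CPM in NICcA. The groups did not overlap, but the interval of the log2 fold change of 0.23 (SE 0.13) ran from -0.09 to 0.55, and without NICcA replicate 2 the value was 0.13. Pgk1, phosphoglycerate kinase, overlapped between the groups, at 287 to 365 CPM in wild type and 479 and 353 CPM in NICcA, and its log2 fold change of 0.36 (SE 0.18) was 0.12 without NICcA replicate 2. Pgam1, phosphoglycerate mutase, measured 394 to 413 CPM in wild type and 496 and 394 CPM in NICcA, so NICcA replicate 3 equalled the lowest wild type library to 3 digits. Eno2, the neuronal enolase, lay the other way at a low level, with 3.90, 4.23 and 4.90 CPM in wild type and 3.13 and 2.52 CPM in NICcA. Its groups did not overlap (log2FC -0.62, SE 0.20, 95% interval -1.12 to -0.13, edgeR unadjusted p = 0.022, adjusted p = 0.31). Eno2 made up 0.513% ± 0.144 of enolase RPKM in wild type (SD, n = 3), so Eno1 set the step's level.

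Over the 16 tested enzymes from hexokinase to pyruvate kinase, 13 log2 fold changes were above 0 and 3 below, with a median of 0.36. Both NICcA libraries lay above wild type for 7 (43.8%, against 18.3% of all genes) and below for 1 (6.25%, against 18.5%). Their summed level was 5160, 5510 and 4710 CPM in wild type and 6840 and 5610 CPM in NICcA, a ratio of 1.21. NICcA replicate 3 passed the highest wild type library by far less than NICcA replicate 2 did. As log2 deviations from the wild type mean, their medians were 0.51 and 0.14 in NICcA and 0.01, 0.08 and -0.15 in wild type.

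Marker sums of other cell types and states differed among the same libraries, some in the direction of the glycolytic sums and some not. Summed proliferation markers were at 791, 501 and 338 CPM in wild type and 904 and 832 CPM in NICcA, and 9 of 9 tested had a log2 fold change above 0. The 11 tested classical activation genes were all above 0 too, and each was higher in NICcA replicate 2 than in NICcA replicate 3. Dendritic cell markers summed to 745 to 942 CPM in wild type and 1030 and 690 CPM in NICcA, with the sum lowest in NICcA replicate 3. Most of that sum was Itgax, at 661, 808 and 848 CPM in wild type and 805 and 551 CPM in NICcA. Gene by gene, NICcA replicate 3 lay above all wild type libraries for 7 of the 10 (70%, against 27.7% of all genes). Both NICcA libraries lay above wild type for 6 of the 10 (60%, against 18.3% of all genes). Mast cell and basophil markers, summed at 2.69 to 11.5 CPM in wild type and 25.1 and 17.8 CPM in NICcA, lay above wild type for 3 of 3 tested (again against 18.3% of all genes), with Mcpt4 at 0 in 4 libraries. Neutrophil markers summed to 74.4 to 152 CPM in wild type, highest in replicate 3, and 130 and 143 CPM in NICcA. Stromal markers summed to 17.2 CPM in wild type replicate 1 and 1.18 to 2.83 CPM in the other libraries. The part of these cells and states in the glycolytic values was not tested.

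**Figure D3:**
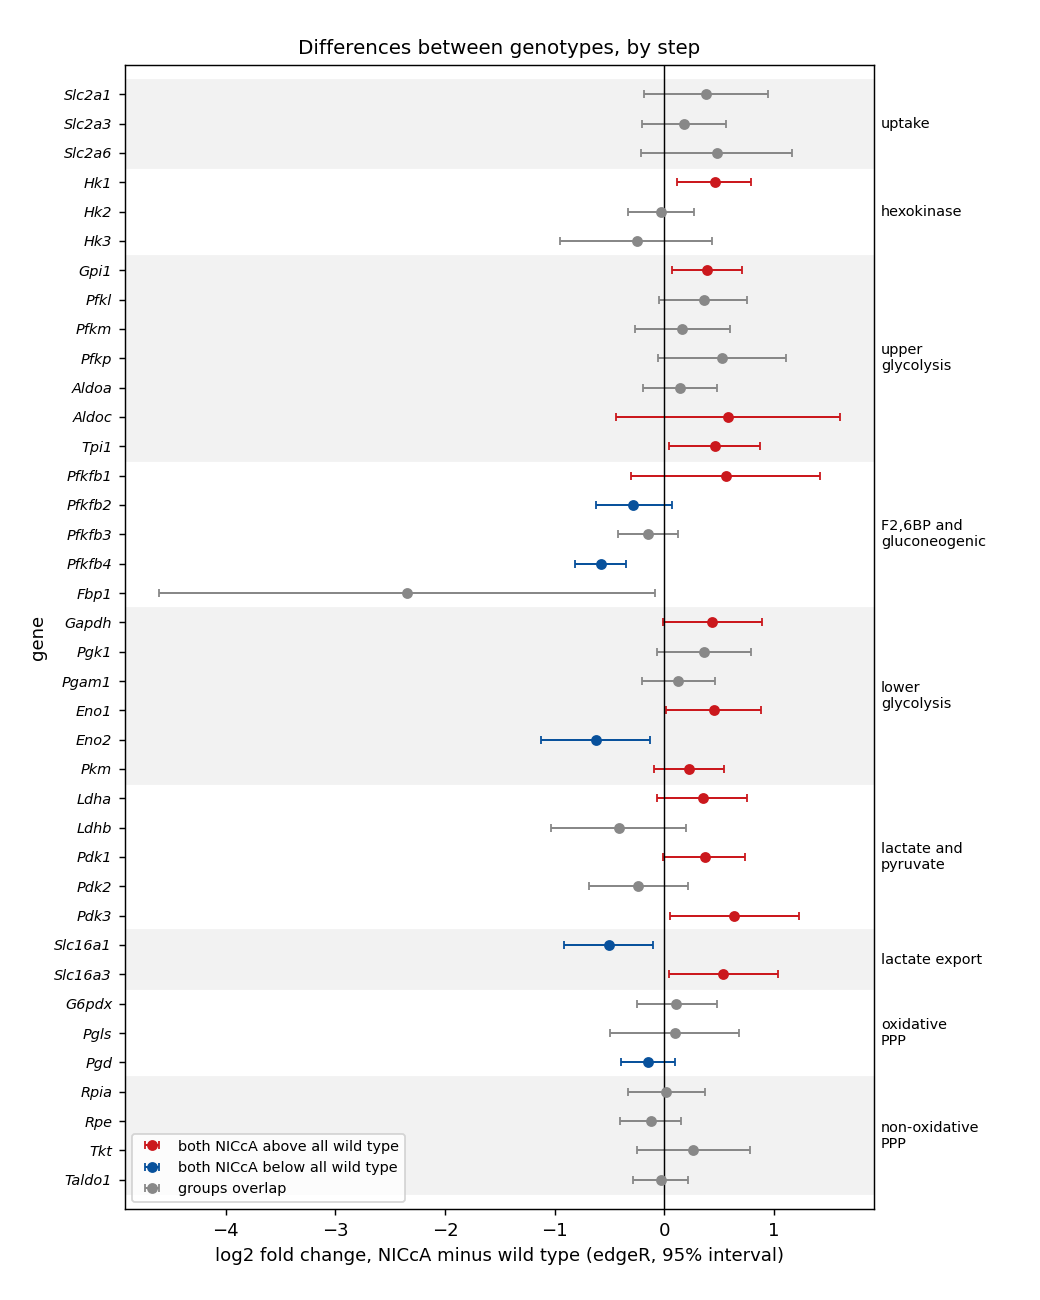
Log2 fold change of NICcA over wild type from edgeR (x axis) with its 95% interval for the 38 tested genes (y axis), grouped by step and coloured by whether the libraries of the groups overlap. Values above 0 fill upper and lower glycolysis except Eno2, and the pentose phosphate genes lie near 0 (-0.15 to 0.26).

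Among the lactate and pyruvate enzymes, Ldha, which makes lactate, measured 576, 567 and 446 CPM in wild type and 749 and 598 CPM in NICcA. The groups did not overlap, while the log2 fold change of 0.35 (SE 0.17) had an interval of -0.07 to 0.76. It was 0.17 without NICcA replicate 2 and 0.06 with wild type replicate 3 left out as well. Ldhb, which favours the reverse reaction, measured 17.2 to 26.4 CPM in wild type and 14.0 and 20.6 CPM in NICcA (log2FC -0.41, SE 0.25, and -0.16 without NICcA replicate 2). Ldha held 94.7% ± 1.56 of the pair's RPKM in wild type and 96.8% ± 1.32 in NICcA (SD, n = 3 and n = 2), with overlapping groups.

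Pyruvate dehydrogenase kinases switch off pyruvate dehydrogenase, the enzyme that uses pyruvate inside the mitochondria. Pdk3 measured 24.3, 16.0 and 14.4 CPM in wild type and 30.8 and 26.0 CPM in NICcA. Both NICcA libraries lay above wild type, with wild type replicate 1 close below them (log2FC 0.64, SE 0.24, 95% interval 0.05 to 1.23, edgeR unadjusted p = 0.038, adjusted p = 0.33). Without wild type replicate 1 it was 0.91 (SE 0.15, edgeR adjusted p = 0.10). It was smaller, at 0.49, without wild type replicate 3, 0.51 without NICcA replicate 2 and 0.36 without both. Pdk1, a known target of hypoxia-inducible factor, measured 29.2, 25.3 and 21.2 CPM in wild type and 31.9 and 33.2 CPM in NICcA, without overlap (log2FC 0.37, SE 0.15, edgeR adjusted p = 0.35). Unlike most genes above, Pdk1 was slightly higher in NICcA replicate 3 than in NICcA replicate 2. Pdk2 measured 4.93 to 6.10 CPM in wild type and 4.13 and 5.06 CPM in NICcA. Its share of the kinases' RPKM was 15.1% ± 4.18 in wild type and 9.05% ± 1.79 in NICcA (SD, n = 3 and n = 2).

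The monocarboxylate transporters, which carry lactate across the membrane, lay in opposite directions. Slc16a3, encoding MCT4, the exporter of highly glycolytic cells, measured 103, 106 and 71.3 CPM in wild type and 152 and 121 CPM in NICcA. Slc16a1, encoding the broadly expressed MCT1, measured 25.0, 26.2 and 22.0 CPM in wild type and 19.8 and 14.7 CPM in NICcA. Neither gene's groups overlapped. The log2 fold change was 0.54 for Slc16a3 (SE 0.20, 95% interval 0.04 to 1.04, edgeR unadjusted p = 0.037, adjusted p = 0.33). For Slc16a1 it was -0.50 (SE 0.17, 95% interval -0.91 to -0.10, edgeR unadjusted p = 0.023, adjusted p = 0.32).

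Slc16a3 held 88.0%, 87.9% and 85.2% of the pair's RPKM in wild type and 93.2% and 93.6% in NICcA. These shares were tight within each genotype and did not overlap (exact permutation p of 0.2, the smallest possible). Both genes carry ACGTG in the promoter stretches printed above. Without NICcA replicate 2 the log2 fold changes were 0.36 for Slc16a3 and -0.73 for Slc16a1, so the directions stayed opposite.

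**Figure D4:**
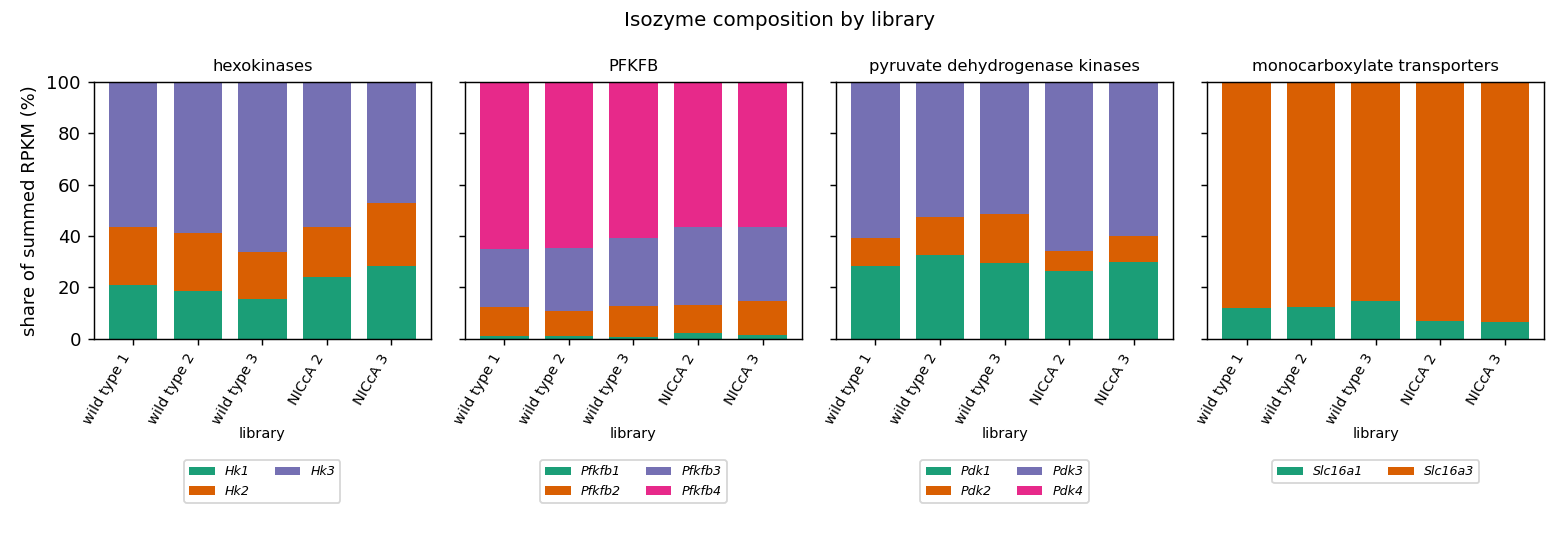
Share of each gene in the summed RPKM of its step (y axis, percent) in the 5 libraries (x axis) for hexokinases, the bifunctional PFKFB enzymes, pyruvate dehydrogenase kinases and monocarboxylate transporters. Hk1 and Slc16a3 take larger shares and Pfkfb4 and Slc16a1 smaller ones in both NICcA libraries; the Pdk4 share, at most 0.129%, is too thin to see.

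The pentose phosphate genes stayed near the wild type levels. Over the 7 genes, the median log2 fold change was 0.02, values ran from -0.15 to 0.26, and 0 had an unadjusted p below 0.05 in edgeR or an adjusted p below 0.05 in DESeq2. Pgd, which makes the second NADPH of the oxidative branch, measured 219, 232 and 230 CPM in wild type and 206 and 204 CPM in NICcA. The groups did not overlap, but they lay close together (log2FC -0.15, SE 0.10, 95% interval -0.39 to 0.10). G6pdx, glucose-6-phosphate dehydrogenase and the entry enzyme, measured 120 to 133 CPM in wild type and 155 and 116 CPM in NICcA (log2FC 0.11, SE 0.15). Pgls, the lactonase between them, ranged from 54.8 to 91.3 CPM in wild type and held both NICcA values, 67.4 and 78.2 CPM, within that range.

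In the non-oxidative branch, which reshuffles sugars back into glycolysis, Taldo1 measured 295, 307 and 301 CPM in wild type and 290 and 300 CPM in NICcA. Its libraries agreed closely across genotypes, and the log2 fold change was -0.03 (SE 0.10, 95% interval -0.28 to 0.22). Tkt, transketolase, measured 336, 369 and 233 CPM in wild type and 400 and 350 CPM in NICcA. Wild type replicate 3 was the low library, and without it the log2 fold change went from 0.26 (SE 0.21) to 0.09 (SE 0.14). Rpia, ribose-5-phosphate isomerase, and Rpe, the epimerase, had log2FC values of 0.02 (SE 0.14) and -0.12 (SE 0.11). The summed pentose phosphate level was 1010 to 1180 CPM in wild type and 1170 and 1100 CPM in NICcA. The difference between this branch and glycolysis was not tested.

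Of 33 further enzymes of the pathway, outside the set, 27 were tested, 13 with a log2 fold change above 0 and 14 below, and the median was -0.01. In edgeR 0 passed the adjustment. At an unadjusted p below 0.05, 3 were higher (11.1%, against 7.68% of all genes) and 2 lower (7.41%, against 6.83%). DESeq2 called 2 higher and 2 lower, where it called 2.05% and 1.9% of all genes. Eno3, the muscle enolase, measured 3.35, 4.04 and 3.23 CPM in wild type and 6.87 and 5.82 CPM in NICcA (log2FC 0.84, SE 0.18, adjusted p = 0.27 in edgeR and 0.0091 in DESeq2). Pgm2l1, glucose-1,6-bisphosphate synthase, measured 29.2, 25.5 and 25.7 CPM in wild type and 34.8 and 41.1 CPM in NICcA (log2FC 0.50, SE 0.13, adjusted p = 0.28 in edgeR and 0.032 in DESeq2). The genes lower in DESeq2, named after their values were seen, were Slc16a7, the lactate transporter MCT2 (log2FC -0.87), and Gpd1, glycerol-3-phosphate dehydrogenase (log2FC -1.43).

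Genes of the mitochondrial pyruvate carrier, of pyruvate dehydrogenase and of its phosphatases, taken as a single list, had log2 fold changes at or below 0.00. Of 10 tested, 9 were below 0, with a median of -0.12, and both NICcA libraries lay below wild type for 4 (40%, against 18.5% of all genes) and above for 0 (against 18.3%). EdgeR's adjustment was passed by 0 of them. At an unadjusted p below 0.05, 2 were lower (20%, against 6.83%) and 0 higher (against 7.68%), and DESeq2 called 1 lower (against 1.9% of all genes). Pdp1, the phosphatase that switches pyruvate dehydrogenase on, measured 41.2, 40.4 and 63.9 CPM in wild type and 19.2 and 24.1 CPM in NICcA. It lay well below wild type in both NICcA libraries (log2FC -1.16, SE 0.25, adjusted p = 0.27 in edgeR and 0.0018 in DESeq2). Mpc1, a subunit of the mitochondrial pyruvate carrier, measured 106, 100 and 94.2 CPM in wild type and 65.2 and 86.0 CPM in NICcA (log2FC -0.40, SE 0.15, edgeR adjusted p = 0.33).

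Of the regulators of glycolytic genes, 20 of 22 were tested. Their median was 0.05 on the log2 fold change scale, and 0 passed edgeR's adjustment. At an unadjusted p below 0.05, 2 were higher (10%, against 7.68% of all genes) and 1 lower (5%, against 6.83%), and DESeq2 called 1 higher (against 2.05%). Myc measured 8.19, 8.68 and 8.18 CPM in wild type and 13.5 and 11.8 CPM in NICcA (log2FC 0.60, SE 0.13, adjusted p = 0.27 in edgeR and 0.0074 in DESeq2). Prkaa1, a catalytic subunit of the energy sensor AMPK, measured 54.2, 46.8 and 55.9 CPM in wild type and 39.1 and 42.6 CPM in NICcA (log2FC -0.36, SE 0.12, edgeR adjusted p = 0.32). Hif1a, named after its values were seen, measured 97.5 to 128 CPM in wild type and 132 and 124 CPM in NICcA, with overlap.

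Of 13 other known targets of hypoxia-inducible factor, 0 passed edgeR's adjustment, and the median log2 fold change was 0.16. At an unadjusted p below 0.05, 4 were higher (30.8%, against 7.68% of all genes) and 2 lower (15.4%, against 6.83%). DESeq2 called 2 higher and 1 lower, against 2.05% and 1.9% of all genes. Ddit4, an inhibitor of mTORC1, measured 2.74, 2.18 and 0.895 CPM in wild type and 9.02 and 7.39 CPM in NICcA (log2FC 2.08, SE 0.44, adjusted p = 0.27 in edgeR and 0.0012 in DESeq2). Bnip3l, a receptor for the removal of mitochondria, measured 142, 141 and 173 CPM in wild type and 84.6 and 102 CPM in NICcA (log2FC -0.71, SE 0.15, adjusted p = 0.27 in edgeR and 0.0043 in DESeq2). Both genes' groups were well apart, in opposite directions.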

How the data were processed

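RNA of 5 macrophage libraries (3 wild type, 2 NICcA) was sequenced. For each of 27457 RefSeq transcript rows the authors deposited a raw read count and an RPKM value, per the file headers, and a further table repeats RPKM values. Bowtie 0.12.2 and build mm8 appear in the submitters' processing notes, without their roles. How reads were counted, and whether by strand, is not given in the sources used here. Isoform rows of a gene share reads, so the row with the highest mean count stands for each gene. Sequences and promoter matches use GRCm38.p6.

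Deposited counts of 18267 rows (13341 genes) entered edgeR 4.0.16 under R 4.3.3 (filterByExpr, TMM, glmQLFit, glmQLFTest, Benjamini-Hochberg over all rows, threshold 0.05). Genotype was the only term. The standard error is the size of the log2 fold change over the square root of F, and the common biological coefficient of variation was 22.5%. Shares were taken from the authors' RPKM and compared with exact permutation tests. The fit was tested on simulated data. Alternatives were DESeq2 1.42.0, voom and log2(RPKM + 1) with limma 3.58.1, other scalings, filters and edgeR settings, 1 row per gene, a replicate term and libraries left out. Tables and figures were made with matplotlib 3.10.9, pandas 2.3.3 and numpy 2.4.6 under Python 3.11.15.

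The genes of the set, the other lists and the tests were chosen with earlier results of these data known. Values in every library are given for the 10 smallest p, for Gapdh and for the most abundant gene of each step, and of each other list for the 2 smallest p. Counts of genes that lie above or below use TMM-scaled CPM.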

Additional observations from a re-analysis of the deposited data

How the results depend on the processing

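The median log2 fold change of the set stayed above 0 in all alternatives but the fit without wild type replicate 3 and NICcA replicate 2, chosen after seeing the data, where it was 0.00 on the 2-decimal scale. It ranged from 0.06 to 0.30 with single libraries left out, lowest without NICcA replicate 2 and highest without NICcA replicate 3. Of the 38 genes, 25 kept the sign of their log2 fold change in all 16 alternatives. Without scaling factors the median of all genes moved by 0.11, 13 genes of the set were higher and 2 lower at an unadjusted p below 0.05, and 21 lay above wild type. On log2(RPKM + 1) with limma 10 were higher and 2 lower, and 20 lay above. With single libraries left out, 0 to 11 genes were higher (1.88% to 11% of all genes) and 2 to 4 lower (2.25% to 6.43%), 12 to 23 lay above (21.5% to 32.3%) and 6 to 11 below (21.8% to 33.3%). The ends of a range of counts and of its percentages need not come from the same fit. The 11 higher, without NICcA replicate 3, stood beside 7.15% of all genes. The 4 lower, without NICcA replicate 2, stood beside 2.25%. With both named libraries left out, 14 genes of the set lay below, where 33.2% of all genes did. DESeq2 called 1 gene of the set. All genes called were 4 with edgeR as described, 11 with no low-count filter, 8 with legacy = FALSE, 527 with DESeq2, 2 with limma-voom, 2 with limma on RPKM, 7 with both named libraries left out and 0 to 44 with single libraries left out. With a replicate block (the replicate number as a term), 0 of all genes passed, and 13 genes of the set were higher and 4 lower at an unadjusted p below 0.05, where 11.5% and 7.1% of all genes were. The labels do not say that a number pairs libraries. Deviations from the group means correlated at 0.206 for the libraries numbered 2 and 0.168 for those numbered 3, across genes. With 2 NICcA libraries, the deviations of each are the mirror of the other's. Wild type replicate 2 with NICcA replicate 3 thus gave -0.206, and wild type replicate 3 with NICcA replicate 2 gave -0.168. The positive values are not independent of each other and cannot show whether a number pairs libraries. Signs changed with both named libraries left out for Slc2a1 (-0.05), Slc2a6 (-0.18), Pfkp (-0.00), Pgam1 (-0.04), G6pdx (-0.07), Rpia (-0.13) and Tkt (-0.01), and to 0.07 for Hk2 and 0.08 for Taldo1 without scaling factors and on RPKM. With single libraries left out, log2 fold changes ran from -0.09 to 0.74 for Slc2a1, -0.09 to 0.89 for Slc2a6, -0.18 to 0.11 for Hk2, -0.76 to 0.12 for Hk3, -0.02 to 0.32 for Pfkm, -0.05 to 0.29 for Pgam1, -0.12 to 0.31 for G6pdx, -0.03 to 0.37 for Pgls and -0.07 to 0.10 for Rpia. Of 175 isozyme shares under alternatives, 15 differences moved by over 1 SD. The causes of these changes were not tested.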
